A study of Ettlia oleoabundans with 10 samples.

Results

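Transcript levels in a culture of the green alga Ettlia oleoabundans with 300 mM NaCl were set against those in a culture with 75 mM NaCl, a step in moderate salinity. The comparison holds 2 of the 10 libraries of the series, chosen by their labels, and 8764 of the 10122 scaffold families of the deposited table, namely those whose values averaged at least 1 over this pair of libraries. Strain UTEX 1185 was used throughout, and all cultures grew photoautotrophically in constant light at 25 °C for 6 days before poly(A)-selected RNA was sequenced. The remaining cultures carried 0, 0.38, 0.75, 1.5 or 3 mM nitrate, 150 or 600 mM NaCl, or 9 mM nitrate with 42 mM NaCl, the control of the series. The labels of the 300 and 75 mM NaCl cultures give no nitrate concentration. Their titles carry the neighbouring codes c4 and c3, and those of 600 mM NaCl and 0 mM nitrate carry c5 and c6. The 150 mM NaCl and 0.38 mM nitrate libraries carry codes that begin with RAA, and the other 4 carry c1, c2, c7 and c8. The sources used here do not give the meaning of the codes.

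Salt acts on algal cells by drawing out water and by the toxicity of sodium, and green algae in general respond with compatible solutes such as glycerol or proline and with the export or storage of ions. Ettlia oleoabundans is known for storing triacylglycerol oil when nitrogen runs short. The families carry numeric identifiers that the files do not pair with gene names, so none of these functions could be looked up among them, and no sequence was at hand to print. Families are therefore described by level, direction and behaviour in the other cultures.

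With 1 library a side, values carry no replicate error and differences have no test. In bulk RNA, fewer cells that express a gene and less RNA per cell cannot be told apart. Differences are on the log2(value + 1) scale, with each library centred on its median over the families tested, a scale that makes changes of weakly expressed families look smaller. Values summed to 695913 at 300 mM NaCl and to 590316 at 75 mM NaCl, and 600 families were listed at 0 at 300 mM and 380 at 75 mM. The read depth is unknown. Among 617 families with values from 0.1 to 1.5 in both libraries, the ratio of the 300 to the 75 mM value found most often was 1.72, with 86 families within 2% of it. Within 2% of 0.860 were 44 families, of 2.58 25 families, of 0.574 20 families and of 1.15 10 families. Whole reads would give this spacing if 1 read were worth 1.72 times as much at 300 mM as at 75 mM. The number of reads behind a value was not recovered.

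Most families differed little between 300 and 75 mM NaCl. The value at 300 mM was at least 2-fold higher in 435 families (4.96% of those tested) and at least 2-fold lower in 632 (7.21%), and 7697 families (87.8%) lay within 2-fold. At least 4-fold higher were 92 families (1.05%) and at least 4-fold lower 194 (2.21%). At least 8-fold higher were 21 families and at least 8-fold lower 61, so that lower families outnumbered higher ones at each of these limits. The quartiles of all differences were -0.31 and 0.30, with extremes of -4.99 and 3.96. Together the higher families held 15.8% of the summed value at 300 mM and 5.89% at 75 mM, and the lower families held 0.698% and 3.39%. The sets were chosen by these 2 libraries, so the order at 300 mM follows at least in part from the choice. Of the higher families, 6 alone held 8.79% at 300 mM and 2.97% at 75 mM. Scaling to equal library totals gave 309 higher and 819 lower families and moved the median of all differences to -0.20, against 0.02 with median centring. At the limits used here, the nearest differences inside and outside 2-fold were 1.002 and 0.996 for higher families and -1.001 and -0.9998 for lower ones. The family just inside the minimum mean had 1.71 at 300 mM and 0.29 at 75 mM, and the one just outside had 1.34 at 300 mM and 0.65 at 75 mM.

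**Figure D1:**
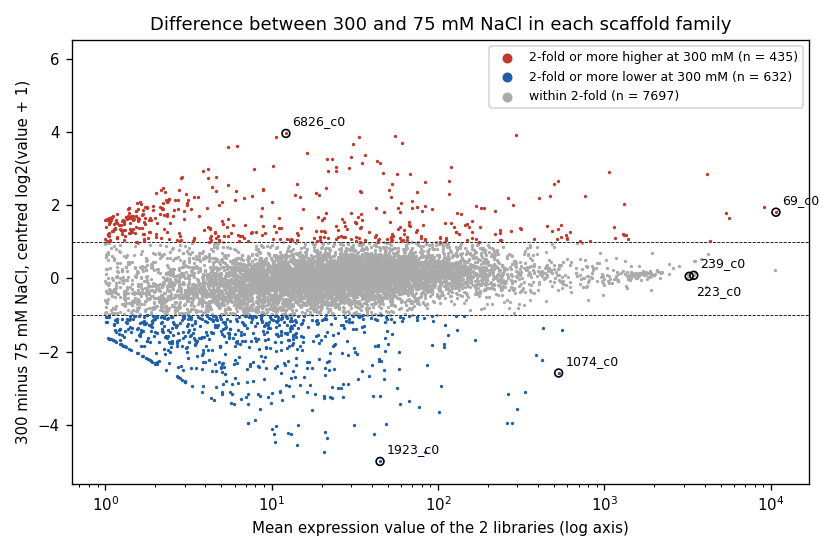
Each point is 1 scaffold family, with its mean expression value over the 2 libraries on a log axis and its centred log2 difference, 300 minus 75 mM NaCl, on the vertical axis; dashed lines mark 2-fold and rings mark the named families. Of 8764 families, 435 lie above the upper line and 632 below the lower one, and the higher families include the one with the highest mean of all, 69_c0.

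The higher families included some of very high expression. Family 69_c0 was the most abundant of all at 300 mM NaCl, with a value of 16709 against 4781 at 75 mM NaCl, where it ranked 2. That is 2.40% of the summed value at 300 mM and 0.810% at 75 mM, a log2 difference of 1.81 and the largest gain in share of any family past 2-fold. Its value was 10678 at 150 mM NaCl and 16069 at 600 mM NaCl. It was 173.5 in the control and 4.18 to 41.8 in the other nitrate cultures. The family was thus high in every salt culture, and 300 and 600 mM had similar values. Of the 10 most abundant families at 300 mM NaCl, 6 including 69_c0 were at least 2-fold higher than at 75 mM, with differences from 1.03 to 2.85, and none was 2-fold lower. These 6 families held 8.79% of the summed value at 300 mM and 2.97% at 75 mM. Their values ran from 5825 to 16709 at 300 mM NaCl (median 8451) and from 1012 to 4781 at 75 mM (median 2783). The 150 mM NaCl library gave 5297 to 14668, the 600 mM NaCl library 6017 to 23630 and the control 34.6 to 2222. These 6 were picked for being abundant at 300 mM and 2-fold higher there, so the order of their 300 and 75 mM ranges follows from the choice. Ranked by the 75 mM values instead, 2 of the 10 most abundant families were at least 2-fold higher at 300 mM and 0 were lower, with a median difference of 0.18. Those 10 families held 10.005% of the summed value at 300 mM and 7.11% at 75 mM.

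Family 6826_c0 had the largest log2 difference among families with a mean of at least 5, at 3.96. Its value was 23.8 at 300 mM NaCl against 0.6 at 75 mM, and 176.2 at 600 mM. It was listed at 0 in the control, at 150 mM NaCl and at 0.38, 1.5 and 3 mM nitrate, and had 0.1 at 0.75 mM and 2.86 at 0 mM nitrate. High values of this family were thus found at 300 and 600 mM NaCl, and not at 150 mM.

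**Figure D2:**
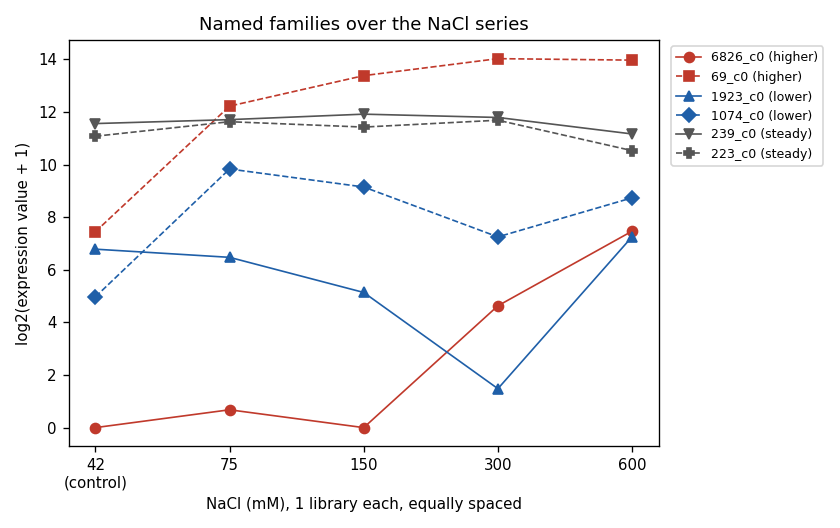
Expression values of the 6 named families, as log2(value + 1), in the 5 libraries of the NaCl series, equally spaced from 42 mM (control) to 600 mM; each point is 1 library. Family 69_c0 goes up at 75 mM and has similar values at 300 and 600 mM, 6826_c0 has 0 at 150 mM and 176.2 at 600 mM, and 1923_c0 has 1.79 at 300 mM beside 152.0 at 600 mM.

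The higher families held groups that differed in level and in the other libraries, a split by the control value made with the values in view. Among the 435, 230 had a control value of at least 1, and 205 had a control value under 1. The 230 families had a median of 71.3 at 300 mM NaCl and 22.9 at 75 mM, and held 15.6% of the summed value at 300 mM against 5.86% at 75 mM. Their median was 32.3 at 150 mM and 61.5 at 600 mM NaCl. It was 11.6 in the control and 13.0 to 20.7 in the other nitrate cultures. Of these 230, 34 were at least 4-fold higher at 300 than at 75 mM.

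The 205 families with a control value under 1 were low in most libraries. Their median was 3.21 at 300 mM NaCl and 0.35 at 75 mM, and they held 0.272% of the summed value at 300 mM against 0.0388% at 75 mM. At 600 mM NaCl their median was 14.4, and only 3 of them were listed at 0 there. At 150 mM NaCl the median was 0 and 148 of the 205 were listed at 0, where 172 of all 380 families with a control value under 1 were. In the control, whose low values chose the families, 147 were listed at 0. So were 150 families at 0.38 mM nitrate, 145 at 1.5 mM, 133 at 3 mM and 96 at 0.75 mM. At 0 mM nitrate, in contrast, 33 were listed at 0, with a median of 0.25, and at 75 mM NaCl 23 were. Of all 8764 families tested, 298 were at 0 at 0.38 mM nitrate, 192 at 1.5 mM, 170 at 3 mM and 117 at 0.75 mM. At 0 mM nitrate 121 of all were, at 75 mM NaCl 23, at 600 mM 152 and in the control 191. The libraries also differed as a whole. Of 10122 families, 380 were listed at 0 at 75 mM NaCl, 470 at 600 mM, 802 at 0 mM nitrate and 975 in the control. Few of the 205 families were at 0 in the libraries coded c3 to c6. For c4, the 300 mM library, this follows from the choice, because a higher family cannot be at 0 there. The part of the title codes in this difference was not tested. At least 4-fold higher at 300 mM were 58 of the 205. In 160 of the 205 the 75 mM value was under 1, so that they passed the minimum mean through the 300 mM value, and their number is no support for a change. Of the 8764 families tested, 380 had a control value under 1, and the higher families made up 53.9% of these 380 and 2.74% of the other 8384. The lower families made up 12.6% and 6.97% of them. Because 186 of the 380 were under 1 at 75 mM and passed the minimum through 300 mM, nothing is read from the share of higher families.

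**Figure D3:**
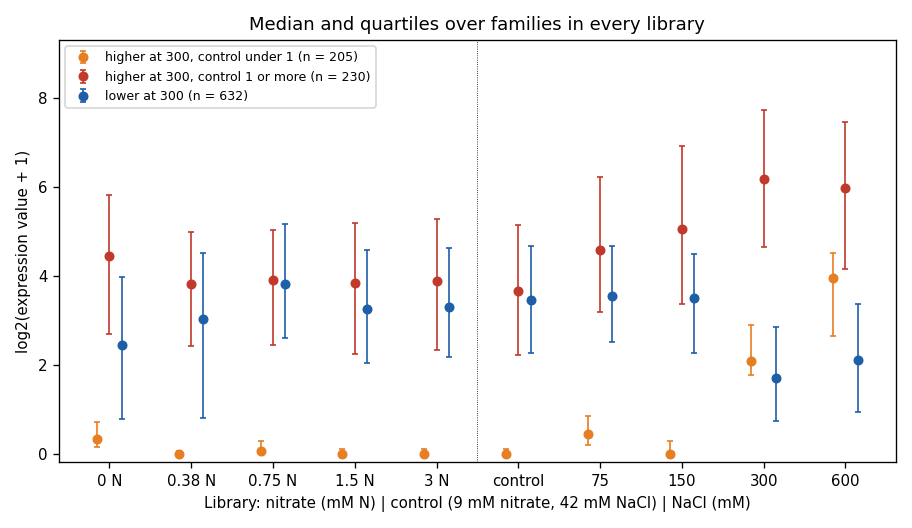
Points are medians and bars quartiles over families of log2(expression value + 1) in each of the 10 libraries, for families at least 2-fold higher at 300 than at 75 mM NaCl, split by a control value under 1 (205) or of 1 or more (230), and for the 632 lower families. The 205 families stand near 0 in all libraries but those of 300 and 600 mM NaCl, and the lower families have their lowest medians at 300 and 600 mM NaCl (2.24 and 3.32) and at 0 mM nitrate (4.44).

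**Figure D4:**
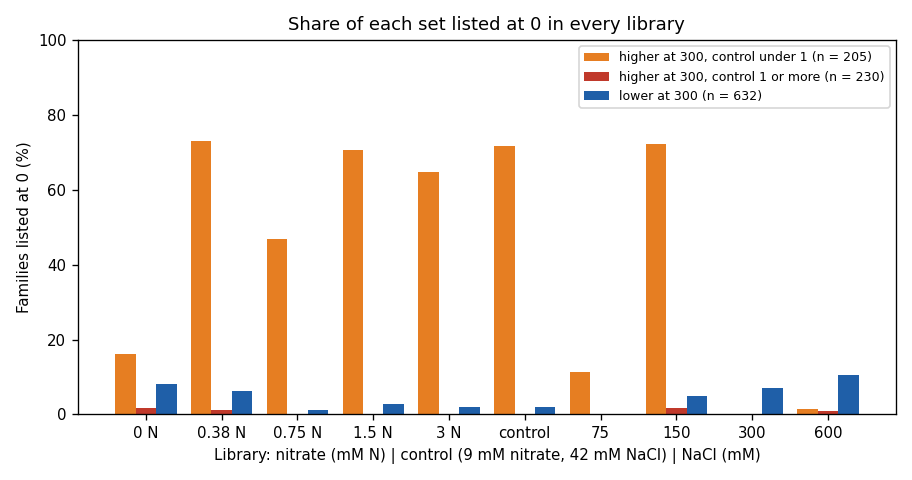
Bars give the percentage of each set listed at 0 in each library, with the same 3 sets. Among the 205 higher families with a control value under 1, 72.2% are at 0 at 150 mM NaCl and 71.7% in the control, against 11.2% at 75 mM, 1.46% at 600 mM and 16.1% at 0 mM nitrate.

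The lower families were expressed below the general level, and by their medians at 300 and 75 mM the higher families were too. The higher families had medians of 13.4 at 300 mM NaCl and 3.46 at 75 mM, and 189 of the 435 had a mean under 5. The higher set also held abundant families, with a mean of at least 100 in 73 of the 435. Of all 8764 families tested, 1345 had a mean under 5 and 1040 a mean of at least 100. The lower families had medians of 2.24 at 300 mM and 10.6 at 75 mM, where those of all families tested were 21.77 and 21.8. A mean under 5 was found in 263 of the 632 (41.6%), against 15.3% of all. At 300 mM, 216 of the 632 had a value under 1, 45 of them listed at 0. These 216 passed the minimum mean through the 75 mM value, so their number is no support for a change. At 75 mM all 632 were at 1 or above, which the minimum mean and the 2-fold limit fix in advance. Their median was 9.89 in the control, where that of all families was 18.4, and 10.4 at 150 mM NaCl and 13.0 at 0.75 mM nitrate, where it was highest. It was 3.32 at 600 mM NaCl and 4.44 at 0 mM nitrate. The 300 and 75 mM values chose the set. Among the libraries that took no part in the choice, the medians were lowest at 600 mM NaCl and at 0 mM nitrate.

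Family 1923_c0 had the largest decrease among families with a mean of at least 5, with a log2 difference of -4.99. Its value was 1.79 at 300 mM NaCl against 87.9 at 75 mM. In the other salt cultures it had 34.2 at 150 mM and 152.0 at 600 mM, against 109.3 in the control. It had 149.3 to 163.9 from 0.75 to 3 mM nitrate, 0.86 at 0.38 mM and 0.17 at 0 mM. This family was thus low at 300 mM NaCl and at the lowest nitrate supplies, and not at 600 mM NaCl. Among families past 2-fold, 1074_c0 lost the largest share of the summed value, with 0.0218% at 300 mM and 0.154% at 75 mM. Its value was 151.4 at 300 mM NaCl against 910.9 at 75 mM, a log2 difference of -2.58. It had 566.7 at 150 mM and 425.8 at 600 mM NaCl, 472.0 at 0 mM nitrate, 30.4 in the control and 15.04 to 82.9 from 0.38 to 3 mM nitrate. Its value at 300 mM NaCl was the lowest of the 4 cultures above 42 mM NaCl, and still above the control.

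Among all 10122 families of the table, values near 0 at 300 mM NaCl only were more frequent than values near 0 at 75 mM only. In 28 families the value was under 1 at 300 mM NaCl and at least 10 at 75 mM, and in 6 families the value was at least 10 at 300 mM and under 1 at 75 mM. The 28 families had medians of 0.4 at 300 mM and 15.02 at 75 mM. Their median was 24.2 in the control and 32.1 at 0.75 mM nitrate, but 2.84 at 0 mM nitrate and 0.965 at 600 mM NaCl. At 600 mM NaCl 5 of the 28 were at 10 or more. The 6 families had medians of 13.5 at 300 mM and 0.55 at 75 mM, and 3 of them were at 10 or more at 600 mM NaCl, where they ran from 1.23 to 176.2. In the whole table, 200 families were above 0 at 300 mM and listed at 0 at 75 mM, and 420 were listed at 0 at 300 mM and above 0 at 75 mM. The 300 mM library had more families at 0 in all, 600 against 380, and the read depth of both is unknown. The part of depth in these counts was not tested, so no trait of the families is read from them.

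The 600 mM NaCl library and the control took no part in the difference, so their comparison shows the same families in other cultures. Of the higher families, 416 could be compared, and 342 of them (82.2%) were at least 2-fold higher at 600 mM than in the control, where 15.6% of all 8631 families were. Only 2 were at least 2-fold lower, where 14.3% of all families were. The control value was under 1 in 187 of the 416, so that these passed the minimum through 600 mM. Among the 230 higher families with a control value of at least 1, 159 (69.1%) were higher at 600 mM and 2 lower, where 13.3% and 14.6% of all 8384 such families were. Of the lower families, 581 could be compared: 303 (52.2%) were at least 2-fold lower at 600 mM than in the control, 239 (41.1%) lay within 2-fold and 39 (6.71%) were higher. The median log2 difference was 2.81 in the higher families, -1.10 in the lower ones and 0.00 in all. The 600 mM library carries c5, next to c4 of 300 mM, and the control c2, next to c3 of 75 mM. The part of the codes in these shares was not tested.

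The sets could also be followed at 150 mM NaCl against the control. Of 258 higher families that could be compared, 129 (50%) were at least 2-fold higher at 150 mM and 14 (5.43%) lower, where 9.89% and 9.91% of all 8500 families were. The control value was under 1 in 30 of the 258, so that these passed the minimum through 150 mM. The other 177 of the 435 were below the minimum mean, so 50% is a share of the families left. Of 615 lower families, 184 (29.9%) were lower at 150 mM than in the control and 106 (17.2%) higher. The centred level at 150 mM lay between those of 300 and 75 mM in 371 of the 632 lower families (58.7%), above both in 201 and below both in 60. In the 435 higher families it lay between in 151 (34.7%), below both in 252 and above both in 32. Among the 230 of them with a control value of at least 1 it lay between in 122 (53.0%), below both in 78 and above both in 30. In all families tested it lay between in 24.2%. Both sets were chosen for a wide gap between 300 and 75 mM, which by itself leaves more room between, so nothing is read from these shares.

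Many of the families that were lower at 300 mM NaCl were also low without nitrate. Of 571 lower families that could be compared, 294 (51.5%) were at least 2-fold lower at 0 mM nitrate than in the control, where 15.1% of all 8400 families were, and 37 (6.48%) were higher, where 9.85% of all families were. Their median values were 5.55 at 0 mM nitrate and 12.1 in the control. Of the higher families, 248 could be compared, and 88 (35.5%) were higher and 30 (12.1%) lower at 0 mM nitrate. The other 187 were below the minimum mean, and with all 435 kept 90 (20.7%) were higher. Among those with a control value of at least 1, 73 of 230 (31.7%) were higher and 33 lower, where 9.42% and 15.4% of all such families were. The 0 mM nitrate library carries a code next to those of the salt libraries, and the part of the codes in these shares was not tested. Between 0.75 and 1.5 mM nitrate, which carry codes c7 and c8, 148 of 591 lower families (25.0%) were at least 2-fold higher at 0.75 mM and 22 (3.72%) lower, where 7.1% and 5.32% of all 8405 families were. The 1.5 mM value was under 1 in 31 of the 591, so that these passed the minimum through 0.75 mM. Of 234 higher families, 31 (13.2%) were higher and 26 (11.1%) lower there.

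**Figure D5:**
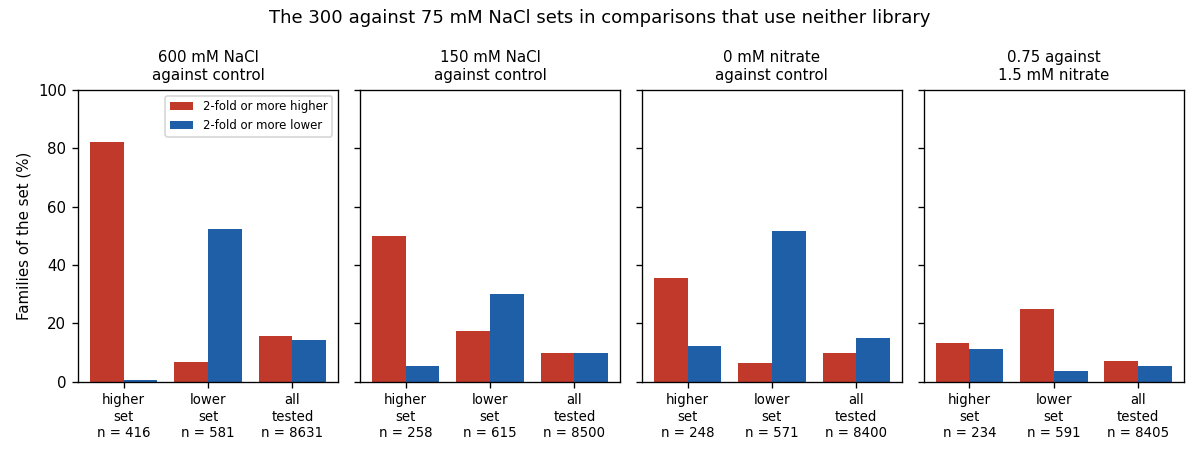
Bars give the percentage of families at least 2-fold higher or lower in 4 comparisons that use neither the 300 nor the 75 mM NaCl library, for the families higher at 300 mM, those lower at 300 mM and all families tested in both comparisons. The higher families are mostly higher at 600 mM NaCl than in the control (82.2%), and the lower families are often lower at 600 mM NaCl (52.2%) and at 0 mM nitrate (51.5%).

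The lower families were concentrated among those with a wide range of values over the 6 nitrate libraries. That range was taken on uncentred values with 1 library per condition. The part of nitrate, library scale and title codes in it was not tested. When the 8764 families were divided into 4 bins of equal size by the range of their log2 values over the 6 nitrate libraries, the control included, the bin with the widest range held 408 lower families (18.6% of that bin), and the bin with the narrowest held 59 (2.69%). For higher families the numbers were 138 (6.30%) and 170 (7.76%). Families near 0 in the nitrate series have a narrow range on this scale, and 166 of the 435 higher families (38.2%) were under 1 in all 6 nitrate libraries, where 26 of the 632 lower families (4.11%) and 2.73% of all families were. Among families of at least 10 in the control, the bin with the widest range, again of 4, held 211 lower (13.9%) and 64 higher families (4.22%), and that with the narrowest held 26 lower (1.71%) and 14 higher ones (0.923%). With bins by control value, the lowest of 4 held 297 higher (13.5%) and 285 lower families (13.0%), and the highest held 50 higher (2.28%) and 93 lower ones (4.24%).

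Other abundant families had nearly the same value at both salinities. Family 239_c0 had a value of 3546 at 300 mM NaCl and 3349 at 75 mM, a log2 difference of 0.09 that became -0.15 with equal library totals and -0.01 with upper-quartile centring. Over the other 8 libraries it was lowest at 0.38 mM nitrate (1742) and highest at 150 mM NaCl (3868). Family 223_c0 had 3298 at 300 mM and 3171 at 75 mM, a difference of 0.06 that became -0.18 with equal library totals and -0.03 with upper-quartile centring. It had 1479 at 600 mM NaCl and 4884 at 0 mM nitrate. Both families were named for a high mean and a difference under 0.1, so their similar values at 300 and 75 mM follow from the choice.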

How the data were processed

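The deposited table held signal values of 10122 scaffold families for 10 libraries. The authors' values were taken as scaled expression levels, since they are never negative and have 2 decimals. Library totals were unequal, and these features do not show whether length or depth entered the scaling. The sources used here do not say whether they are FPKM or TPM. Bowtie 0.12.8, RSEM 1.2.0 and edgeR 3.0.8 are named, with no role or order, per the submitters' processing notes. Every per-library column was read.

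From these values, log2(value + 1) was computed with pandas 2.3.3 and centred per library on its median over families with a mean of at least 1 over the 2 libraries compared. Families at least 2-fold apart were counted. Other comparisons share no library with 300 and 75 mM NaCl and were filtered and centred likewise over families also tested at that step. With 1 library a side, no test was made. The counting was tested on simulated data. This run checked the code only and gives no error rate for the families counted here, least of all for those with low values.

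In each direction the rule named the family with the largest difference at a mean of at least 5 and the family past 2-fold with the largest difference in share of the summed value. It also named the 2 families of highest mean with a difference under 0.1. Members, sets and rules were chosen with earlier results of these data known. Lists of genes by function could not be matched to families.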

Additional observations from a re-analysis of the deposited data

How the results depend on the processing

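With 1 library per condition, the spread between cultures and the counting error are unknown, and low values limit the counts most. A pseudocount of 5 gave 196 higher and 284 lower families at 300 against 75 mM NaCl, and a minimum mean of 5 gave 235 and 397. The other 7 alternatives (no centring, 3 other scalings, upper-quartile centring, a pseudocount of 0.1, no filter) gave 309 to 587 higher and 627 to 819 lower families. Sets compared elsewhere shrank likewise, while most shares moved little. Also higher at 600 mM NaCl than in the control were 135 of 191 higher families (70.7%) with the pseudocount of 5 and 153 of 200 (76.5%) with the minimum of 5. They were 159 of 230 (69.1%) where the control had to be at least 1, an alternative added with the data in view. The shares of all families in these 3 settings were 11.5%, 13.3% and 13.3%. Of the lower families, 130 of 267 (48.7%) and 184 of 333 (55.3%) were also lower there with the pseudocount and the minimum of 5, against 9.47% and 13.3% of all. At 0 mM nitrate, 53 of 161 higher families (32.9%) were also higher with the pseudocount of 5 and 52 of 144 (36.1%) with equal library totals. They were 57 of 166 (34.3%) with equal totals after the 50 most abundant families were left out. The shares of all families there were 7.19%, 8.77% and 9.87%. With no filter the share was 19.9% of 513 higher families, against 10.1% of all. Also lower at 0 mM nitrate were 125 of 262 lower families (47.7%) and 147 of 339 (43.4%) with the pseudocount and the minimum of 5, against 9.89% and 13.3% of all. The 4 named higher or lower families kept their direction and stayed past 2-fold in every alternative in which they were present. No paired analysis was possible because each condition has 1 library.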

Other observations

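Some families share a scaffold number and differ in the suffix of the identifier. Among the families tested at 300 against 75 mM NaCl, 486 belonged to 231 such numbers, and 13 of them (2.67%) were at least 2-fold higher and 28 (5.76%) at least 2-fold lower at 300 mM, beside 4.96% and 7.21% of all families tested. They formed 286 pairs with the same number, and the median gap between the log2 differences of a pair was 0.40. In 43 pairs 1 family was past 2-fold and the other was not, in 1 pair both were lower, and in 0 pairs were both higher. A difference in opposite directions, both past 2-fold, was found in 0 pairs. The sources used here do not say what a shared number means.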
